A study of Mus musculus with 10 samples.

Results

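Sost, Phex, Fgf23, Pdpn, Fam20c and Galnt3, 6 genes that are tied to osteocytes or to the hormone control of phosphate, were followed through the differentiation of MC3T3-E1 cells. They were found by the Ensembl identifier that carries each symbol, and all 6 are among the 40620 genes of the count table. MC3T3-E1 is a mouse pre-osteoblast line, and the cells belong to its Subclone 4, so that the groups are cultures of 1 clonal line and not of separate animals. RNA was sequenced as paired reads of 51 bp at 5 stages with 2 replicates per stage, 10 samples in all. Subconfluent and confluent cells were kept in αMEM growth medium with 10% serum and no osteogenic agent. Cells at 24 h, 14 d and 21 d had received, from confluence on, the same medium supplemented with β-glycerophosphate at 10 mM and ascorbic acid at 50 μg/ml. No culture was kept for 14 d or 21 d in growth medium, so time, density and medium cannot be told apart.

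Osteocytes are osteoblasts that have become buried in the matrix they made. They are the main source of FGF23, a hormone that lowers phosphate in the blood through the kidney, and of sclerostin, the product of Sost, which holds back Wnt signaling by binding the co-receptors LRP5 and LRP6. Phex is a membrane peptidase whose loss causes X-linked hypophosphatemia with high FGF23. Galnt3 attaches a sugar to FGF23 that shields it from cleavage by furin-like convertases, while Fam20c, a kinase of the secretory pathway, phosphorylates FGF23 and many proteins of mineralized matrix. Pdpn encodes podoplanin, also called E11, a surface glycoprotein regarded as an early osteocyte marker that takes part in the outgrowth of cell processes. Since these cells are classed as osteoblasts in the labels, the question was which of these genes were expressed and at which stage.

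The 6 genes are spread over 6 chromosomes of GRCm38. Sost (ENSMUSG00000001494) lies on chromosome 11 from 101962458 to 101967015 on the minus strand. Phex (ENSMUSG00000057457) spans chromosome X from 157162075 to 157415312 on the minus strand in 22 exons. Its introns hold Gm23798, Gm25795 and Gm15172, none of which shares an exon base with it or had more than 8 counts in any sample. Fgf23 (ENSMUSG00000000182) lies on chromosome 6 from 127072902 to 127081408 on the plus strand. Galnt3 (ENSMUSG00000026994) lies on chromosome 2 from 66082766 to 66124994 on the minus strand. Fam20c (ENSMUSG00000025854) lies on chromosome 5 from 138754514 to 138810077 on the plus strand. Pdpn (ENSMUSG00000028583) lies on chromosome 4 from 143267431 to 143299564 on the minus strand.

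Fam20c and Galnt3 had CpG-rich promoters, and the other 4 genes had CpG numbers at or below the median of all promoters. RefSeq promoters of 300 bases on GRCm38.p6, from 250 bases before to 50 after the transcription start, were found for all 6 genes. Fam20c had 47 CpG dinucleotides and 80.7% G plus C in this window, and Galnt3 had 41 CpG and 76.7% G plus C. Sost had 7 CpG, Pdpn 7, Fgf23 6 and Phex 4, where the median of 32851 promoters is 7. Sost, Fgf23 and Phex shared the letters TTTAAAA on the strand of the gene. The first T was at positions -30, -27 and -56 from the RefSeq start. For Phex, Fam20c and Galnt3 that start lies inside the gene span given above, as does part of the Phex stretch printed below. The run TTTAAAA was chosen after the sequences had been seen. On either strand it is present in 8.74% of all promoters of this length, and within the 50 bases before the start on the strand of the gene in 0.886%. That window of 50 bases holds the matches of Sost and Fgf23 but not that of Phex. The 90 bases before the start are shown for these 3 genes, 5′ to 3′ on the strand of the gene with TTTAAAA in capitals, because the 2 hormone genes, whose RNA was not detected above the floor, share it with Phex, which rose in late culture.
Sost, chr11:101967016-101967105, minus strand: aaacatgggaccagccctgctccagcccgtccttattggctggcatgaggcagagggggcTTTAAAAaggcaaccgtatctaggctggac
Fgf23, chr6:127072812-127072901, plus strand: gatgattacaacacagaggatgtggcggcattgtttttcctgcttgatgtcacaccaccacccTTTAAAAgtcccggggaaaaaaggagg
Phex, chrX:157415287-157415376, minus strand: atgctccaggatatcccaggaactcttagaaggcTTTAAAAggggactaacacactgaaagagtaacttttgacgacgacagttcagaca
The Runx core letters TGTGGT were found on neither strand of the 6 windows and are present in 16.8% of all promoters. CACGTG, the E-box, was found at position -144 of Pdpn alone among the 6 and is present in 7.15% of all. These matches describe letters and not sites of binding, and the motifs do not overlap one another.

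Expression was given by the authors as counts per gene and as RPKM, in which counts are set against the length of the gene and the size of the library. Total counts ran from 44736156 to 162939333 per sample. Genes were tested with edgeR's quasi-likelihood test on the counts of all 10 samples, and 20808 genes passed its filter on low counts. A gene was called when its adjusted p was under 0.05 and its level differed more than 2-fold. The labels do not say that the replicates were separate cultures, so p-values measure the spread between these samples only. The log2 ratio of the replicates had an SD of 1.02 across the tested genes at 24 h and of 0.83 to 0.85 at the other stages. The first 3 stages were sequenced with 1 pair of library indexes and the last 2 stages with a second pair. Whether a difference between early and late stages came with the stage or with the set of libraries cannot be told apart. In such bulk samples, a change in the number of expressing cells and a change in RNA per cell cannot be told apart either. All 8 osteoblast markers, among them Col1a1, Runx2 and Sp7, were above 1 RPKM at every stage. None of 6 endothelial markers (summed level 0.0082 to 0.103 RPKM) and none of 6 adipocyte markers (0.119 to 1.13 RPKM) had a mean above 1 RPKM at any stage. Among the 6 blood markers Ptprc was at 0 at every stage while Lyz2 had a mean of 10.7 to 15.4 RPKM, Csf1r of 1.84 to 2.68 RPKM and Cd68 of 0.587 to 0.923 RPKM. The summed level of 6 chondrocyte markers, led by Col2a1, was 176 to 179 RPKM in subconfluent, 91.4 to 99.6 in confluent, 46.9 to 64.1 in 24 h, 235 to 242 in 14 d and 111 to 120 RPKM in 21 d samples, with Col9a1 at 0 in subconfluent and confluent and Acan at 0 in confluent and 24 h cells. Most of the sum is Col2a1, which like Phex and Galnt3 was highest at 14 d. Col9a1 also had its highest mean at 14 d, 0.518 RPKM beside 0.127 RPKM at 21 d. So did Acan (0.0164 RPKM), though its 14 d and 21 d replicates overlapped. Of the others, Sox9 (35.6 RPKM) and Col10a1 (3.78 RPKM, replicates 1.67 and 5.88) had their highest means at 21 d. Matn3 fell from a mean of 2.95 RPKM in subconfluent cells to 0.332 at 14 d and 0.0757 at 21 d. The part of these genes in the levels of Phex and Galnt3 was not tested.

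**Figure D1:**
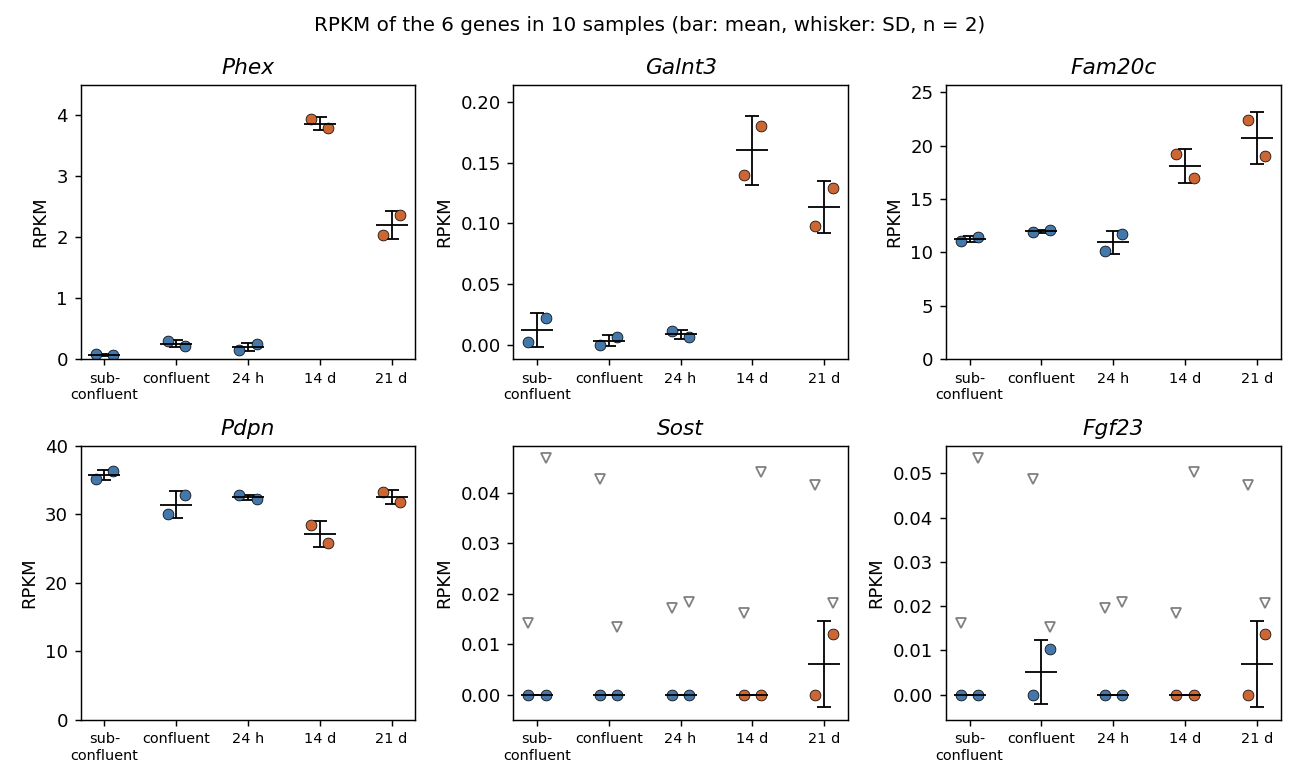
RPKM of each gene in the 10 samples by stage, with the mean as a bar and the SD of 2 replicates as a whisker; blue samples carry the first index pair and orange samples the second. Phex and Galnt3 were near 0 until 24 h and highest at 14 d, Fam20c was highest at 21 d, Pdpn lay between 25.8 and 36.3 RPKM, and Sost and Fgf23 stayed below the level of 3 counts (open triangles) in every sample.

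The transcripts of the 2 hormones were not detectable above a handful of counts. Sost had 0 counts in 9 of the 10 samples and 2 counts, or 0.0121 RPKM, in replicate 2 at 21 d. Fgf23 had 0 counts in 8 samples, with 2 counts (0.0102 RPKM) in confluent replicate 2 and 2 counts (0.0138 RPKM) in 21 d replicate 2. Of 1015103989 counts over all samples, 2 therefore fell on Sost (exact Poisson 95% interval 0.242 to 7.22) and 4 on Fgf23 (1.09 to 10.2). A count of 0 allows up to 3 counts, which comes to 0.0135 to 0.0469 RPKM of Sost and 0.0153 to 0.0534 RPKM of Fgf23, depending on the depth of the sample. These limits and intervals cover counting error only. Both genes failed the filter and were not tested, and their levels at the 5 stages cannot be ordered at this depth. The sample that held both Sost counts and 2 of the Fgf23 counts, 21 d replicate 2, was sequenced in 2 lanes. All 4 counts came from the second lane, which held 14.7% of its counts.

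Phex RNA was scarce in growing cells and rose as the cultures matured. Subconfluent replicates had 0.0805 and 0.0617 RPKM (52 and 12 counts), confluent replicates 0.291 and 0.214 RPKM (62 and 145 counts) and 24 h replicates 0.156 and 0.242 RPKM (83 and 120 counts). At 14 d the replicates had 3.94 and 3.78 RPKM (2221 and 783 counts), and at 21 d they had 2.04 and 2.36 RPKM (448 and 1185 counts). Every sample at 14 d and 21 d lay above every earlier sample, and in the order of the means 14 d, 21 d, confluent, 24 h and subconfluent, confluent and 24 h replicates overlapped while all other neighbors were separate. The subconfluent mean was 0.0711 ± 0.0133 RPKM (SD, n = 2), and the 14 d mean was 3.86 ± 0.107 RPKM (SD, n = 2).

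Phex was called by edgeR in 4 of the 6 comparisons. The log2 fold change was 4.16 in 14 d against confluent cells (SE 0.25, adjusted p = 6.41e-05), 4.41 in 14 d against 24 h (SE 0.25, adjusted p = 0.000119) and 5.03 in 21 d against subconfluent cells (SE 0.27, adjusted p = 1.2e-05). All of these cross the index pairs. They placed Phex at rank 418, 272 and 464 among 20808 genes from the largest rise downward. Of all genes tested, 9.15%, 4.47% and 16.3% were called higher in these comparisons. Within an index pair, Phex rose from subconfluent to confluent cells by 1.75 on the log2 scale (SE 0.25, adjusted p = 0.0139), where 1.43% of all genes were called in either direction. That call was lost without subconfluent replicate 1 (adjusted p = 0.0819), without subconfluent replicate 2 (adjusted p = 0.0979) or without confluent replicate 1 (adjusted p = 0.06). Also within a pair, 24 h against confluent cells gave -0.25 (SE 0.23, 95% interval -0.79 to 0.30, adjusted p = 0.554), a comparison in which 2.13% of all genes were called. From 14 d to 21 d the log2 fold change was -0.88 (SE 0.22, 95% interval -1.40 to -0.36), which did not reach the 2-fold limit at an adjusted p = 0.0495. Of all genes 3.97% were called there, and 9.72% had an adjusted p under 0.05. Without 1 of the 4 replicates of these stages in turn the adjusted p was 0.173 to 0.285.

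**Figure D2:**
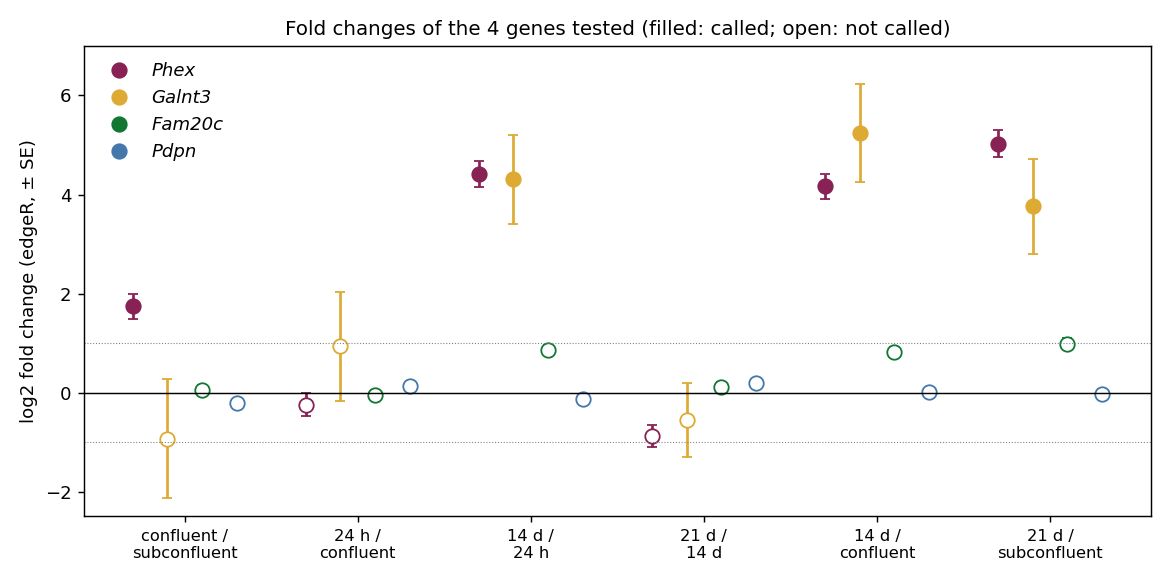
Log2 fold change by edgeR, with its SE as error bar, of the 4 genes tested, in 6 comparisons; filled points were called and open points were not, and dotted lines mark 2-fold. Phex and Galnt3 lay above 3.7 in each comparison of 14 d or 21 d with a stage before 14 d, whereas every value of Fam20c and Pdpn lay within the dotted lines.

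Phex belongs to the M13 family of zinc peptidases with neprilysin (Mme) and the endothelin-converting enzymes, and it remained a minor member. Of the summed RPKM of the 7 family genes it made up 0.171% ± 0.0213 before confluence, 4.35% ± 0.148 at 14 d and 3.55% ± 0.419 at 21 d (SD, n = 2). It ranked 4 of 7 at every stage. Mme had the highest mean at every stage, 15.8 RPKM before confluence and 52.3 RPKM at 14 d. Its replicates overlapped those of Ece1 in subconfluent cells (17.2 and 14.5 against 15.5 and 14.9 RPKM). They also did at 24 h (18.5 and 44.8 against 12.1 and 19.3 RPKM). Of the 6 other family genes 4 were tested, and in 21 d against subconfluent cells only Mme was called, with a log2 fold change of 1.01 (SE 0.32, adjusted p = 0.0339 by edgeR). The same comparison called 27.6% of all genes in either direction.

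Galnt3 had a handful of counts until 24 h and a low level at 14 d and 21 d. It had 1 and 3 counts in subconfluent, 0 and 3 in confluent and 4 and 2 in 24 h replicates, against 55 and 26 at 14 d and 15 and 45 at 21 d. In RPKM these were 0.00222 and 0.0222, 0 and 0.00637, and 0.0108 and 0.0058 for the first 3 stages, then 0.14 and 0.181 at 14 d and 0.0982 and 0.129 at 21 d. The samples at 14 d lay above those at 21 d, and both above all earlier samples, among which the replicates overlapped. The gene passed the filter through 14 d and 21 d alone, where it is high, so that its tests are given as a description and not as support for a difference.

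The counts set wide limits on the size of the change in Galnt3. Set against depth, the 81 counts at 14 d over the 3 in confluent cells gave a ratio of 30.9 (exact 95% counting interval 10.2 to 153). The 60 counts at 21 d over the 4 in subconfluent cells gave 16.97 (6.30 to 64.3), and 21 d over 14 d gave 0.803 (0.565 to 1.14). Galnt3 was called higher in 14 d against confluent cells, where the fitted log2 value was 5.25 (SE 0.995, adjusted p = 0.00676), in 14 d against 24 h with 4.31 (SE 0.90, adjusted p = 0.0188) and in 21 d against subconfluent cells with 3.76 (SE 0.96, adjusted p = 0.0137), all by edgeR. These fitted values depend on the small count that the model adds to genes near 0. In 14 d against confluent cells the value became 8.58 without confluent replicate 2, the only one of these replicates with counts, and ran from 4.77 to 5.44 with any other sample left out. In 21 d against subconfluent cells it became 5.52 without subconfluent replicate 2. The call against 24 h was lost without 14 d replicate 1 (adjusted p = 0.0733) or replicate 2 (adjusted p = 0.0965). The call at 21 d was lost without subconfluent replicate 1, where the log2 fold change became 2.44 (adjusted p = 0.0819), and without 21 d replicate 2, where it was 3.50 (adjusted p = 0.0631). No comparison within an index pair called the gene, with a lowest adjusted p = 0.643.

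Even at its peak Galnt3 made up little of its family, whose enzymes start mucin-type O-glycans by adding N-acetylgalactosamine to serine or threonine. Its share of the summed RPKM of 18 Galnt genes was 0.00901% ± 0.0104 before confluence, 0.148% ± 0.0263 at 14 d and 0.107% ± 0.0202 at 21 d (SD, n = 2). Its rank lay between 11 and 13, and Galnt2 had the highest mean at every stage, from 30.3 to 46.6 RPKM. Among the other 17 Galnt genes 10 were tested, of which in 21 d against subconfluent cells 2 rose, 1 fell and 7 were not called, where 27.6% of all genes were called in either direction. Their median log2 fold change was -0.09 beside 0.04 for all genes. Galnt16 rose by 5.22 on the log2 scale (SE 0.71, adjusted p = 0.000703), from a mean of 0.0236 to 0.816 RPKM, and Galnt15 by 1.56 (SE 0.28, adjusted p = 0.0027). Galnt13 had a log2 fold change of -2.26 (SE 0.14, adjusted p = 1.79e-05), from 3.34 to 0.645 RPKM.

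**Figure D3:**
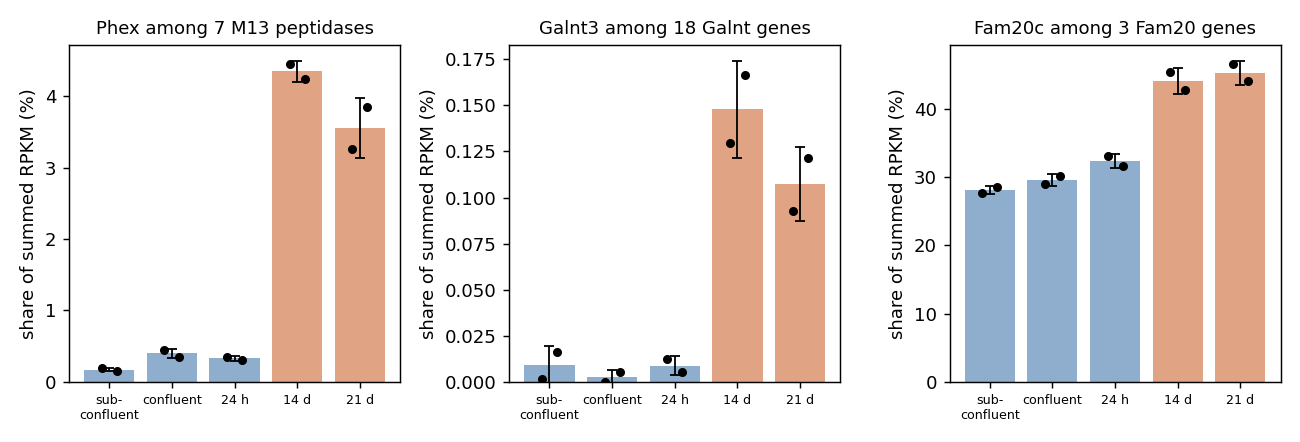
Share of Phex, Galnt3 and Fam20c in the summed RPKM of their gene families by stage (bars: mean; whiskers: SD; points: 2 replicates); blue and orange are the index pairs. The share of Fam20c, with its length taken as 4210 bases, went from 28.1% to 45.3%. Phex and Galnt3 peaked at 4.35% and 0.148% at 14 d.

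Fam20c was expressed well at all stages and at a higher level in mature cultures. The replicates had 11.1 and 11.5 RPKM in subconfluent cells, 11.9 and 12.1 RPKM in confluent cells and 10.2 and 11.7 RPKM at 24 h. They had 19.2 and 17.0 RPKM at 14 d and 22.4 and 19.0 RPKM at 21 d. No late sample overlapped an early one, whereas 14 d and 21 d overlapped each other, and so did subconfluent and 24 h cells. The count table used a length of 4210 bases for Fam20c, where the annotated exons add up to 6590, so that its RPKM depends on the choice of gene model.

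The change in Fam20c stood at the 2-fold limit. By edgeR the log2 fold change was 0.81 in 14 d against confluent cells (SE 0.10, adjusted p = 0.00118), 0.86 in 14 d against 24 h (SE 0.10, adjusted p = 0.00237) and 0.99 in 21 d against subconfluent cells (SE 0.10, 95% interval 0.75 to 1.23, adjusted p = 0.000178). The last is a 1.99-fold difference and was therefore not called. It exceeded 2-fold with upper-quartile factors (1.12), when a minimum of 10 counts was asked of each sample (1.05) and without 21 d replicate 2 (1.10). At an adjusted p under 0.05 with no limit on the fold, 32.1% of all genes passed at 14 d when confluent cells were the reference, 17.3% when 24 h cells were, and 50.7% in 21 d against subconfluent cells. Within an index pair the values were 0.06 (95% interval -0.18 to 0.30), -0.04 (-0.28 to 0.19) and 0.12 (-0.12 to 0.35) for confluent against subconfluent, 24 h against confluent and 21 d against 14 d.

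By RPKM at the length of 4210 bases used for it, Fam20c overtook Fam20b as the most abundant of the 3 Fam20 genes. Fam20b is its paralog that phosphorylates xylose in proteoglycan linkers. The annotated exons of Fam20c add up to 6590 bases, so its rank and share depend on the gene model. The share of Fam20c in the summed RPKM of the 3 genes was 28.1% ± 0.566 before confluence, 44.1% ± 1.86 at 14 d and 45.3% ± 1.78 at 21 d (SD, n = 2). For Fam20b, subconfluent cells had 23.4 ± 0.0801 RPKM (SD, n = 2) and 21 d cells had 15.4 ± 0.0266 RPKM (SD, n = 2), with a log2 fold change of -0.49 (SE 0.11, adjusted p = 0.00954). Fam20a, a pseudokinase that activates Fam20c, had 5.43 ± 0.166 and then 9.50 ± 1.11 RPKM (SD, n = 2), a log2 fold change of 0.92 (SE 0.11, adjusted p = 0.000437). Both adjusted p-values are from edgeR, and neither gene reached 2-fold. Pkdcc, a tyrosine kinase of the same pathway, was the only gene called among the 5 other secretory kinases, with 1.86 (SE 0.28, adjusted p = 0.00118) in 21 d against subconfluent cells, where 27.6% of all genes were called.

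From subconfluent cells to 21 d, several known substrates of Fam20c in bone matrix had larger log2 fold changes than the kinase, a difference that was not tested. Of 8 listed substrates 4 were tested, the 4 of enamel and dentin (Dspp, Enam, Ambn and Amelx) being below the filter, and all 4 were called higher in 21 d against subconfluent cells. Mepe, an acidic phosphoprotein of osteocytes, had a log2 fold change of 7.75 (SE 0.35, adjusted p = 6.59e-06). Ibsp, bone sialoprotein, had 7.43 (SE 0.29, adjusted p = 3.84e-06), and Spp1, osteopontin, 2.02 (SE 0.20, adjusted p = 0.000139). Ibsp had its highest mean at 14 d, 4227 RPKM beside 2540 RPKM at 21 d. Spp1 had means of 225, 210 and 283 RPKM in confluent, 24 h and 14 d cells, below its 331 RPKM in subconfluent cells. Its 21 d replicates had 1509 and 968 RPKM. Dmp1, a phosphoprotein of osteocytes, had 4.32 (SE 0.29, adjusted p = 2.54e-05). These are edgeR values, and the same comparison called 16.3% of all genes higher.

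Pdpn was the most abundant of the 6 genes at every stage and varied least. The replicates had 35.2 and 36.3 RPKM in subconfluent cells, 30.1 and 32.8 RPKM in confluent cells, 32.8 and 32.2 RPKM at 24 h, 28.5 and 25.8 RPKM at 14 d and 33.3 and 31.8 RPKM at 21 d. By RPKM both subconfluent samples lay above and both 14 d samples below all others, and the 3 stages between them overlapped. The highest sample was 1.41 times the lowest. In edgeR, where the libraries are scaled by TMM factors, none of the 6 comparisons had an adjusted p under 0.05, nor did the F test over the 5 stages (adjusted p = 0.169), in which 48.9% of all genes passed. The F test for Pdpn did pass with library size alone, with limma-trend at either pseudocount and without the 24 h samples. Of all genes, 10225 of 20808 passed with library size alone and 14107 of 19994 without the 24 h samples. With limma-trend, 10449 of 20795 passed on log2(RPKM + 1) and 10398 on log2(RPKM + 0.1). For 14 d against 24 h, limma-trend gave Pdpn a difference of -0.25 on log2(RPKM + 1) with an adjusted p = 0.0478 and of -0.26 on log2(RPKM + 0.1) with an adjusted p = 0.0494, and for 21 d against 14 d a fit of only these 2 groups in edgeR gave 0.23 with an adjusted p = 0.0441. The log2 fold change was 0.0037 in 14 d against confluent cells (SE 0.09, 95% interval -0.20 to 0.21, adjusted p = 0.982) and -0.02 in 21 d against subconfluent cells (SE 0.09, 95% interval -0.22 to 0.19, adjusted p = 0.885). With library size alone as the scale, the first was -0.23 and the median of all genes was -0.20, where it was 0.03 with TMM factors.

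None of 6 tested partners of podoplanin was called in any of the 6 comparisons, where the share of all genes called was as low as 1.43% in confluent against subconfluent cells and as high as 27.6% in 21 d against subconfluent cells. In 21 d against subconfluent cells their median log2 fold change was -0.15, beside 0.04 for all genes. Cd44, a hyaluronan receptor that binds podoplanin and was listed with the osteocyte genes, had subconfluent and 21 d means of 76.9 ± 0.157 and 51.1 ± 0.198 RPKM (SD, n = 2), and its log2 fold change was -0.47 (SE 0.10, adjusted p = 0.00656 by edgeR). Clec1b, the platelet receptor of podoplanin, failed the filter.

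Ratios of RPKM between the tested genes were computed as a description. The RPKM of Pdpn was 512 ± 106 times that of Phex before confluence, 7.03 ± 0.303 times at 14 d and 14.9 ± 2.01 times at 21 d (SD, n = 2). Pdpn exceeded Fam20c by a ratio of 3.17 ± 0.0128 before confluence and 1.58 ± 0.134 at 21 d (SD, n = 2). Phex over Galnt3 was 24.5 ± 5.05 at 14 d and 19.6 ± 1.74 at 21 d (SD, n = 2), and with 19.5 ± 23.6 (SD, n = 2) before confluence its spread allows no order of the stages.

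Other osteocyte-associated genes had their highest mean at different stages, without a test of the difference. Of 12 such genes 10 were tested, of which 3 rose, 1 fell and 6 were not called from subconfluent cells to 21 d. The median of their log2 fold changes was 0.54, beside 0.04 for all genes, of which 27.6% were called in either direction and 16.3% higher. Hyou1, a chaperone induced by low oxygen, rose by 1.48 on the log2 scale (SE 0.12, adjusted p = 7.07e-05), and Gja1, the gap junction protein connexin 43, had a log2 fold change of -1.97 (SE 0.09, adjusted p = 7.6e-06). At 14 d and 21 d, Mepe had means of 10.7 ± 1.28 and 8.64 ± 1.58 RPKM (SD, n = 2), while Dmp1 had 5.83 ± 0.411 and 22.5 ± 9.09 RPKM (SD, n = 2). Dmp1 was called higher in 21 d against 14 d (log2 fold change 1.88, adjusted p = 0.0044 by edgeR), whereas the value of Phex there was -0.88. The difference between the 2 genes was not tested. As a share of the highest stage mean, Phex was at 57.0% at 21 d, Galnt3 at 70.8%, Mepe at 80.9%, Alpl at 38.1% and Dmp1 at 100.0%. Tnfsf11, the osteoclast factor RANKL, failed the filter and had at most 0.0112 RPKM.

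**Figure D4:**
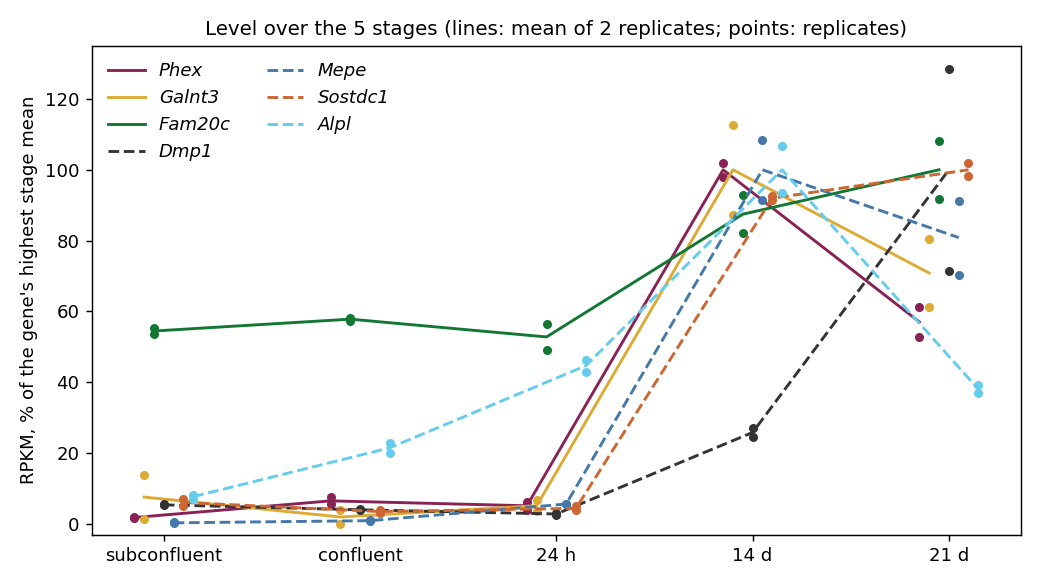
RPKM as a percent of the highest stage mean of each gene over the 5 stages (lines: mean; points: 2 replicates, shifted sideways for clarity), with Phex, Galnt3 and Fam20c as solid lines. Phex, Galnt3, Mepe and the osteoblast enzyme Alpl had their highest mean at 14 d, and Fam20c, Dmp1 and Sostdc1 had theirs at 21 d.

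For FGF23, receptors were present where the hormone was not detected, and its co-receptor was not. Kl encodes α-Klotho, which FGF23 needs to signal through its receptors in the kidney, and it had at most 0.00248 RPKM in any sample. Of 15 genes of FGF23 signaling, phosphate transport and vitamin D metabolism 9 were tested. From subconfluent cells to 21 d 4 of them rose and 2 fell (Vdr and Slc20a1), and the median log2 value was 0.36, beside 0.04 for all genes, of which 27.6% were called in either direction and 16.3% higher. The receptor Fgfr1 went from 32.7 ± 0.206 RPKM to 86.9 ± 6.11 RPKM (SD, n = 2), with 1.53 (SE 0.11, adjusted p = 3.92e-05), and Fgfr3 had 1.62 (SE 0.13, adjusted p = 5.2e-05). Pth1r, the parathyroid hormone receptor, had 2.89 (SE 0.15, adjusted p = 1.12e-05), and Cyp27b1, which makes active vitamin D, had 1.80 (SE 0.29, adjusted p = 0.00174). Within an index pair, Pth1r rose from subconfluent to confluent cells by 1.62 (adjusted p = 0.00247). Furin, the convertase against which Galnt3 shields FGF23, had subconfluent and 21 d means of 12.6 ± 0.223 and 10.1 ± 0.0718 RPKM (SD, n = 2), with -0.20 (SE 0.15, 95% interval -0.56 to 0.16, adjusted p = 0.328). Of the 7 convertases 4 were tested and 2 rose, where 16.3% of all genes were called higher, Pcsk6 by 1.78 (SE 0.15, adjusted p = 7.04e-05) and Pcsk4 by 1.33 (SE 0.26, adjusted p = 0.00399). All values are from edgeR.

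For sclerostin, a relative and the co-receptor Lrp5 rose while Sost itself was not detected. All 10 genes listed around sclerostin were tested. From subconfluent cells to 21 d 5 of them rose and 0 fell, and the median log2 fold change was 0.86 beside 0.04 for all genes, of which 16.3% were called higher. Sostdc1, a secreted BMP and Wnt antagonist related to sclerostin, had subconfluent and 21 d means of 0.286 ± 0.0660 and 4.70 ± 0.120 RPKM (SD, n = 2), a log2 fold change of 4.12 (SE 0.24, adjusted p = 1.63e-05). Lrp5, a Wnt co-receptor that sclerostin binds, rose by 2.39 (SE 0.23, adjusted p = 0.000138). Lrp6, the other co-receptor, did not rise, with subconfluent and 21 d means of 14.7 ± 0.229 and 12.6 ± 0.447 RPKM (SD, n = 2). Lrp4, which helps sclerostin act, had a log2 fold change of 0.18 (SE 0.30, 95% interval -0.52 to 0.88, adjusted p = 0.66). Mef2c, a factor that acts on the Sost enhancer, rose by 1.97 (SE 0.18, adjusted p = 0.000106), and within an index pair by 1.18 from subconfluent to confluent cells (adjusted p = 0.016). Hdac5, a deacetylase that restrains Mef2, rose by 1.18 (SE 0.08, adjusted p = 2.52e-05). These too are edgeR values. Of the 24 listed genes called in 21 d against subconfluent cells, 23 were still called with DESeq2 size factors, 24 with upper-quartile factors and 22 with library size alone, and all 24 kept their direction under these 3.

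**Figure D5:**
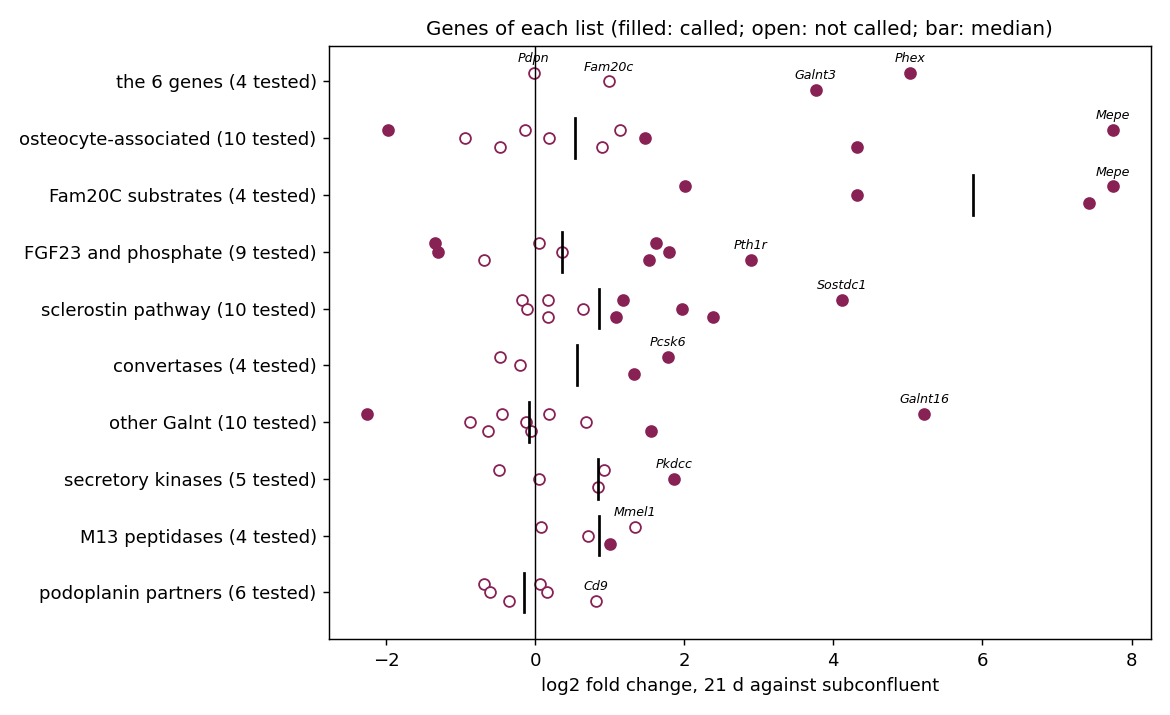
Log2 fold change by edgeR in 21 d against subconfluent cells of each tested gene of the 6 and of 9 gene lists; filled points were called, open points were not, black bars are list medians and the highest gene of each list is named. The Fam20C substrates lay between 2.02 and 7.75, while the podoplanin partners lay between -0.69 and 0.82 with none called.

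Genes with profiles most like those of the 4 tested genes were sought among all 20808 by Pearson's r of log2 CPM over the 10 samples. Phex was most like Rtl5 (r = 0.993), Fam124b (r = 0.992) and Klf4 (r = 0.990). Galnt3 was most like Spns3 (r = 0.978), Col13a1 (r = 0.975) and Mgarp (r = 0.974). Fam20c was most like Obox4-ps28 (r = 0.994), Obox4-ps27 (r = 0.992) and Manba (r = 0.991), where the first 2 are pseudogenes of 1 family, whose reads may be shared between copies. For Pdpn, whose values spread little, the highest were Xrcc4 (r = 0.940), Gm26570 (r = 0.921) and Adh6a (r = 0.920). The 10 samples are 5 stages in 2 sets of libraries, so these values describe likeness over few independent points.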

How the data were processed

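RNA-seq of MC3T3-E1 cells at 5 stages with 2 replicates each was analysed. The authors deposited raw counts per Ensembl gene and RPKM values, whose denominators, read from the values, were gene length and a read number of 31 to 108 Mreads per sample. The submitters' processing notes name FastQC, TopHat2 2.0.9, R 3.0.1 and mm10; the counting tool, its annotation and its use of strand are not given in the sources used here. The merged column was used for the 2 samples sequenced in 2 lanes. Symbols were found for 39547 of 40620 identifiers.

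Counts were fitted in edgeR 4.0.16 (R 4.3.3) with TMM factors and filterByExpr over the 5 stages. A quasi-likelihood model with 5 groups gave 6 comparisons and an F test, with Benjamini-Hochberg adjustment over all 20808 genes tested. The standard error is the log2 fold change over the square root of F, and intervals use the model's degrees of freedom. Levels, shares and ratios are from RPKM, without a test. DESeq2 1.42.0 and limma 3.58.1 were alternatives. Simulated counts for 14 d against confluent cells held 20808 genes. The test called 11 of 60 genes changed 2-fold, 47 of 73 changed 4-fold and 50 of 67 changed 8-fold. It called 4 of 20608 unchanged genes. In the data this comparison called 2705 genes, far more than were changed in the simulation. The simulation also held no difference between sets of libraries, so its rates may not carry over to the data.

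The 6 genes and the lists were chosen with earlier results of these data known. Named with values are the 6 genes, from each list at most 4 called genes with the largest change in 21 d against subconfluent cells, genes that a sentence on the 6 needed (Dmp1, Furin, Lrp4, Fam20a, Fam20b, Sostdc1, Fgfr1, Kl and Cd44), and the 3 genes most like each tested gene. Galnt2, Ece1, Lrp6, Alpl, Vdr, Slc20a1, Tnfsf11, Dspp, Enam, Ambn, Amelx and Clec1b were named after their values were seen. The single cell type markers given with values, such as Lyz2, Csf1r, Cd68, Sox9, Col10a1 and Matn3, also fall outside the rule above. Promoters are from RefSeq.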

Additional observations from a re-analysis of the deposited data

How the results depend on the processing

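The number of the 6 genes called was recomputed under 15 kinds of alternative. Galnt3 is counted here as a description, since it passed the filter through 14 d and 21 d alone, where it is high. In confluent against subconfluent cells, where 1 gene (Phex) was called, limma-trend on log2(RPKM + 1) gave 0, limma-trend on log2(RPKM + 0.1) gave 0 and a 4-fold limit gave 0. Of all genes, these called 128, 255 and 81, in that order, beside 297 in the main fit. In 14 d against 24 h, with 2 genes, a minimum of 10 counts in every sample gave 1, since Galnt3 is then no longer tested, limma-trend on log2(RPKM + 1) gave 1 and a fit of only the 2 groups compared gave 1. Of all genes, these called 732, 500 and 319, in that order, beside 1245 in the main fit. In 14 d against confluent cells, with 2 genes, the minimum of 10 counts gave 1 and limma-trend on log2(RPKM + 1) gave 1. Galnt3 was the gene lost in both, and under the minimum it was again not tested. Of all genes, these called 1784 and 1343, beside 2705 in the main fit. In 21 d against subconfluent cells, with 2 genes, limma-trend gave 1 with either pseudocount. Of all genes, it called 3396 on log2(RPKM + 1) and 5218 on log2(RPKM + 0.1), beside 5740 in the main fit. There upper-quartile factors gave 3, with Fam20c added, and called 5877 of all genes. With the minimum of 10 counts, which called 4252 of 16133 genes, Fam20c took the place of Galnt3, which was again not tested. Without 21 d replicate 2 the log2 fold change of Fam20c was 1.10. In the F test over the 5 stages, which called 3 genes, library size alone, limma-trend at either pseudocount and the fit without the 24 h samples gave 4, with Pdpn added. Of all genes, these called 10225, 10449 on log2(RPKM + 1), 10398 on log2(RPKM + 0.1) and 14107, beside 10173 in the main fit. The minimum of 10 counts gave 2, with Galnt3 not tested, and called 9381 of 16133 genes. In 21 d against 14 d, with 0 genes called at 2-fold, 1 (Phex) passed with no limit on the fold. Of all genes 2023 did, beside 826 called in the main fit. Leaving out 1 replicate at a time, the log2 fold change of Phex ran from 1.53 to 1.99 in confluent against subconfluent cells. That of Galnt3 ran from 3.86 to 4.85 in 14 d against 24 h and from 2.44 to 5.52 in 21 d against subconfluent cells. The calls lost in this way are given with each gene above. The cause was not tested except where stated.

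The sign of small changes in Pdpn moved. In 14 d against confluent cells (0.0037) it was -0.0137 with DESeq2 size factors, -0.23 with library size alone, -0.0178 with DESeq2, -0.0651 with no filter, -0.21 with limma-trend at either pseudocount, -0.0153 without the 24 h samples and -0.0094 with only the 2 groups compared, and -0.0634 to 0.0662 with each replicate left out. In 21 d against subconfluent cells (-0.02) it was 0.11 with upper-quartile factors and 0.0378 with a minimum of 10 counts, and -0.0566 to 0.0078 with each replicate left out. Leaving out each replicate also turned Fam20c in 24 h against confluent cells (-0.0767 to 0.0065) and in 21 d against 14 d (-0.0027 to 0.23), and Galnt3 in confluent against subconfluent cells (-4.28 to 0.84). None of these was called.

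For the replicate letters A and B, the correlation of deviations between stages ran from -0.18 to 0.10 over the tested genes. Replicates of most stages also differed in depth, such as 148950530 and 44736156 counts in subconfluent cells. These values therefore cannot tell whether the letters paired the samples. With the letter as a replicate block, 1 gene was called in confluent against subconfluent cells, 2 in 14 d against 24 h, 2 in 14 d against confluent cells and 2 in 21 d against subconfluent cells, as without it. The log2 fold change of Phex in 21 d against 14 d was -0.88 with the block (adjusted p = 0.0936), and over the other alternatives its adjusted p ran from 0.00138 with DESeq2 to 0.285 without 21 d replicate 1. Depth limits Sost, Fgf23 and the early levels of Galnt3.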

Other observations

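The 2 lanes of a sample gave a check of low counts within 1 library. In 21 d replicate 2, 1 of the 45 Galnt3 counts came from the second lane, or 2.22% (exact 95% binomial interval 0.0562 to 11.8%), where that lane held 14.7% of all counts. For Phex the share was 12.96%, for Fam20c 15.9% and for Pdpn 15.2%. In 14 d replicate 1 the second lane held 31.8% of all counts, 36.4% of the Galnt3 counts (23.8 to 50.4%) and 28.8% of the Phex counts (26.9 to 30.7%). Its merged Phex count was 2221, where the lanes add up to 2161. These intervals cover counting error only.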
